A study of Mus musculus with 14 samples.

Results

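Markers of hepatic stellate cells and myofibroblasts, 10 genes in all (Acta2, Tagln, Des, Vim, Pdgfra, Pdgfrb, Rgs5, Ctgf, Dcn and Lum) were followed through 14 mouse livers. The genes were taken by symbol from a table of read counts that lists 25212 genes, where 10 of 10 were found, and 10 of 10 were among the 14252 genes with enough counts to be tested. Messenger RNA was sequenced with 1 library per liver from male C57BL/6 mice that had been given a high-fat diet from 6 weeks of age, for 12 weeks before they were allocated at random, and that stayed on it afterwards. The DIO group (diet-induced obesity, 5 livers) was not operated. In the GB-IL group (4 livers) the gallbladder was joined to the ileum 4 cm before the ileo-caecal valve and the common bile duct was tied, so that bile entered the distal small bowel, and the RYGB group (5 livers) had a Roux-en-Y gastric bypass. All livers were taken 8 weeks after surgery. No sham-operated liver was analysed here, so an effect of the operation itself and one of the rerouted bile cannot be told apart.

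Hepatic stellate cells lie between the sinusoidal endothelium and the hepatocytes, where they store retinoids and, when quiescent, make little matrix. On activation they take on features of myofibroblasts: they express contractile proteins such as smooth muscle actin, respond to platelet-derived growth factor through its receptors, and lay down collagen and proteoglycans. None of the 10 genes is exclusive to them, since vascular smooth muscle, pericytes, portal fibroblasts, muscle and, for Vim, leukocytes and endothelium express some of them. In whole liver, fewer cells of a type and less RNA per cell cannot be told apart.

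Total counts ran from 18440676 to 21473005 in DIO, from 19231679 to 26131278 in GB-IL and from 18223135 to 28656631 in RYGB. GB-IL livers 1 and 2 stood apart from the other livers on the first principal component of all genes (134 and 106, against -45.7 to 20.1 in the other 12 livers), which held 48.5% of the variance. GB-IL liver 1 also carried skeletal muscle transcripts and RYGB liver 5 was the highest of its group for many of the 10 genes, so the fold changes of markers that these livers moved most are given below with and without them. Hepatocyte markers such as Alb summed to 118870 to 136050 CPM of the total count in DIO and to 117810 to 154430 in RYGB. In GB-IL livers 1 to 4 the sum was 98419, 112120, 81302 and 119330, so that livers 1 to 3 were below every DIO liver. The part of this difference in the marker levels was not tested. Levels are given as CPM, read counts scaled to a common library total, with the TMM factor that corrects each library for differences in composition. They are named as CPM of the total count where that factor was not used.

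The markers differed widely in level in DIO liver. Per kilobase of exon, Dcn (decorin) was highest at 23.9 ± 5.88 CPM per kb (mean ± SD, n = 5), followed by Rgs5 at 8.53 ± 0.981, and neither range overlapped that of the next gene. Vim (4.41), Tagln (3.81), Lum (2.90), Ctgf (2.64), Acta2 (1.74) and Pdgfrb (1.58 CPM per kb) followed as group means in this order, each overlapping its neighbour in range. Des (1.17) and Pdgfra (0.544 CPM per kb) were lowest, with ranges apart from their neighbours. In GB-IL and in RYGB every neighbouring pair in the order overlapped in range. Spread within DIO was smallest for Pdgfrb, with a coefficient of variation of 8.11%, and largest for Acta2 at 71.5%.

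**Figure D1:**
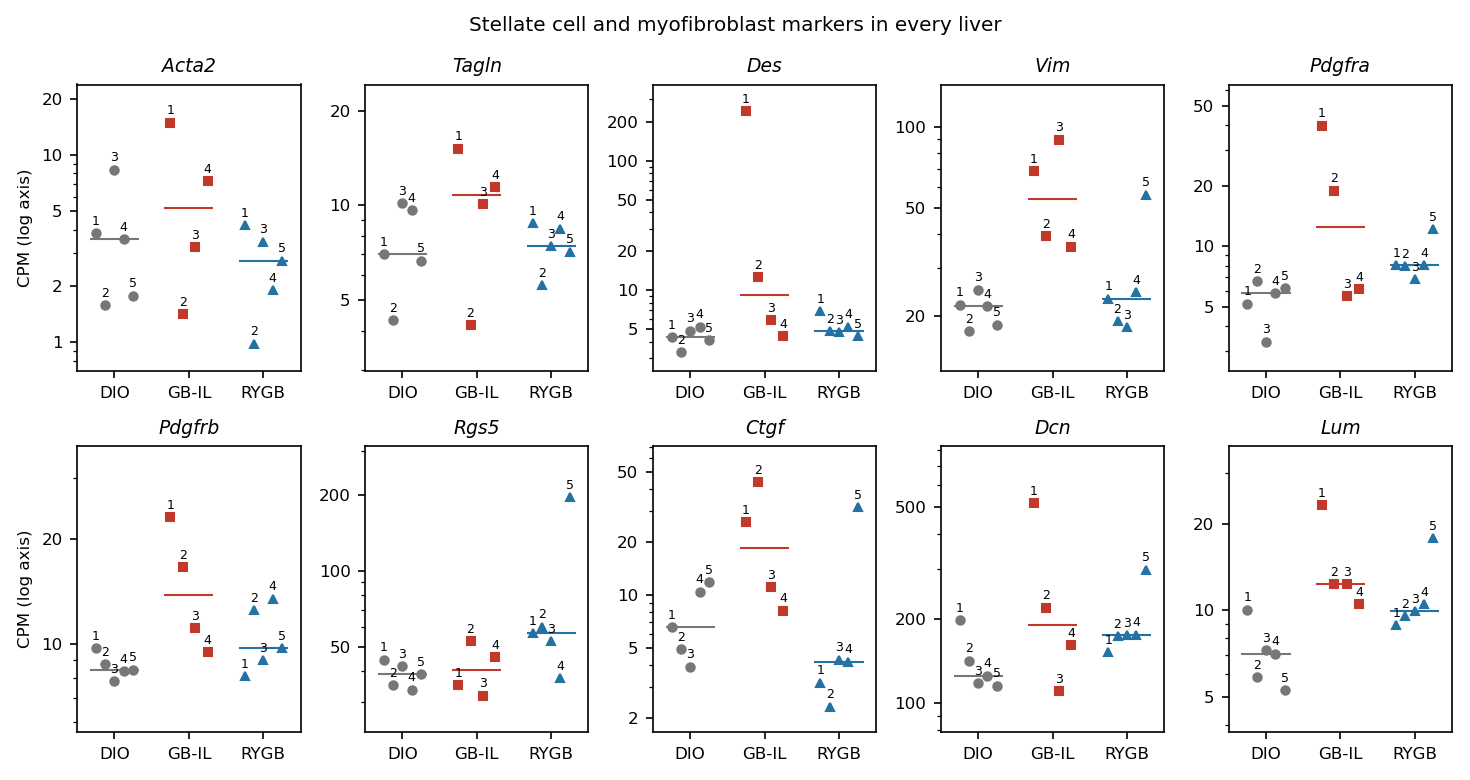
CPM of each marker (log axis, scaled separately for each gene) in the 5 DIO, 4 GB-IL and 5 RYGB livers. Each point is 1 liver with its number and the line is the group median; GB-IL liver 1 is highest for 7 of the 10 genes and RYGB liver 5 for Rgs5.

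Seen liver by liver, the higher levels in GB-IL were concentrated in livers 1 and 2. Liver 1 was above every DIO liver for 9 of the 10 markers, at a median of 3.37 times the DIO mean, and liver 2 for 8 of 10, at 1.81 times, while its Acta2 and Tagln lay below every DIO liver. Livers 3 and 4 were above every DIO liver for 4 markers each, at medians of 1.31 and 1.16 times the DIO mean. These livers also differed from DIO in many other genes, with 36.1%, 35.4%, 25.6% and 15.6% of all tested genes above every DIO liver in GB-IL livers 1 to 4. RYGB livers 1 to 4 were above every DIO liver for 2 or 3 markers, against 17.1% to 18.6% of all genes, and RYGB liver 5 for 7 markers, against 27.3%.

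**Figure D2:**
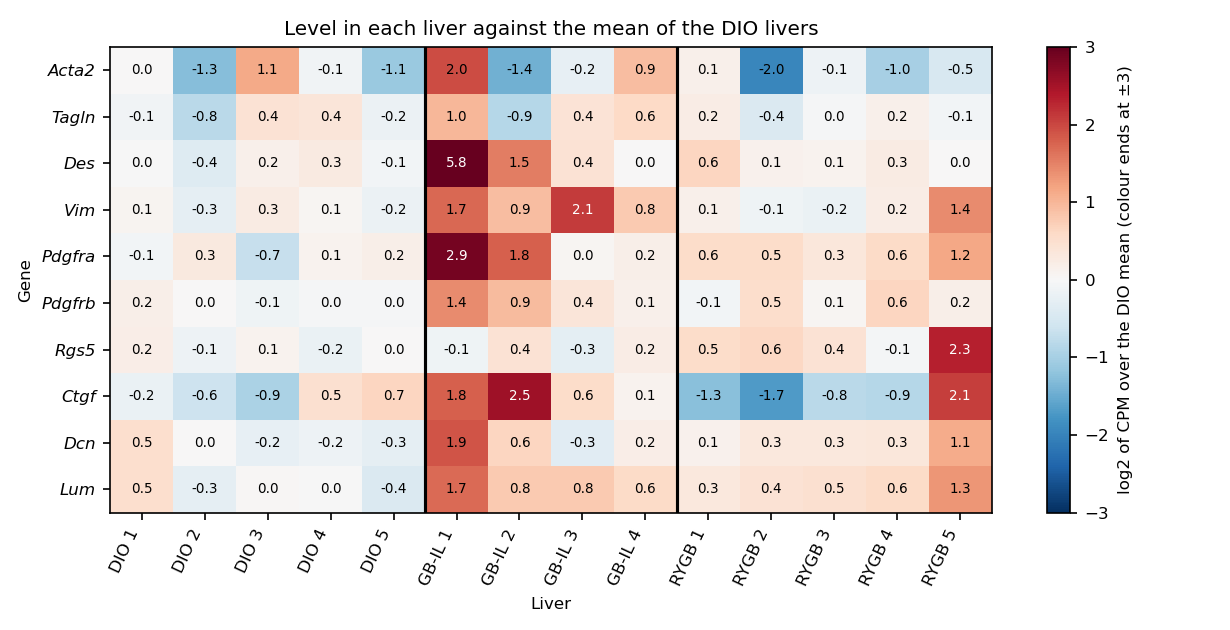
log2 of each liver's CPM over the mean of the 5 DIO livers, with 1 column per liver, 1 row per marker and the value printed in each cell. GB-IL liver 1 is raised in 9 of 10 rows and RYGB liver 5 in 7, counted as above every DIO liver.

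For GB-IL against DIO, the quasi-likelihood test of edgeR, adjusted by Benjamini-Hochberg over all tested genes, called 2 of the 10 markers higher (Des and Vim) and none lower, against 3.15% of all genes called higher. At an unadjusted p below 0.05, 7 markers were higher (16.7% of all genes) and none was lower. Without overlap between the groups, 2 were higher, Vim and Lum (2.67% of all genes). All 10 estimates were above 0, as were 53.1% of those of all genes, and the markers had a median log2 fold change of 0.94, against 0.04 over all genes.

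The contractile genes did not pass the test. Acta2 (alpha smooth muscle actin, chr19:34241090-34255590, minus strand) is the usual sign of a myofibroblast and is also made by vascular smooth muscle. It stood at 3.82, 1.57, 8.35, 3.56 and 1.78 CPM in DIO livers 1 to 5, at 14.9, 1.41, 3.22 and 7.23 CPM in GB-IL livers 1 to 4, and at 4.21, 0.986, 3.45, 1.90 and 2.73 CPM in RYGB livers 1 to 5. The 3 groups overlapped, with GB-IL holding the highest liver and RYGB the lowest. In GB-IL against DIO its log2 fold change was 0.81 ± 0.613 (SE, edgeR adjusted p = 0.413), which became 0.06 without GB-IL liver 1.

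Tagln (transgelin, an actin-binding protein of smooth muscle, chr9:45929619-45936058, minus strand) had the same order of livers within GB-IL as Acta2. Its CPM was 7.01, 4.33, 10.2, 9.68 and 6.68 in DIO, 15.1, 4.18, 10.1 and 11.4 in GB-IL and 8.80, 5.57, 7.43, 8.44 and 7.13 in RYGB. Again the groups overlapped, and the log2 fold change in GB-IL against DIO was 0.43 ± 0.317 (edgeR adjusted p = 0.398). An antisense gene, Gm48529, which the table does not list, covers 62.4% of the exon bases of Tagln, and since no strand setting is given, reads of the pair cannot be told apart. The ratio of Acta2 to Tagln within a liver ran from 0.266 to 0.82 in DIO, from 0.319 to 0.983 in GB-IL and from 0.177 to 0.478 in RYGB.

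Promoter windows of the genes at the centre of the comparison were read from RefSeq (GRCm38.p6), from 250 bases before to 50 bases after the start of transcription, to show the sequence from which the contractile and the filament genes are read. The table held a window for 5 of the 10 genes (Acta2, Des, Pdgfra, Rgs5 and Vim). Both strands were searched for the CArG box bound by serum response factor, for GGAATG, the core of TEAD sites, and for TATAAA, and capitals mark each match. Acta2 is at chr19:34255324-34255623 (minus strand), Vim at chr2:13574061-13574360 (plus strand) and Des at chr1:75360042-75360341 (plus strand), each printed 5′ to 3′ on the strand of the gene.
Acta2: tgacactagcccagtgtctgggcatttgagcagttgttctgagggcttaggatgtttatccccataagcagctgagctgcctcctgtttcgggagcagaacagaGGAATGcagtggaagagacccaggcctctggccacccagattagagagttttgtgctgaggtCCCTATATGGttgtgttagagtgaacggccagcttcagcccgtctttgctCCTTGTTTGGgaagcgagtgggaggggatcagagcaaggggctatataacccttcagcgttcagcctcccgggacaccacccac
Vim: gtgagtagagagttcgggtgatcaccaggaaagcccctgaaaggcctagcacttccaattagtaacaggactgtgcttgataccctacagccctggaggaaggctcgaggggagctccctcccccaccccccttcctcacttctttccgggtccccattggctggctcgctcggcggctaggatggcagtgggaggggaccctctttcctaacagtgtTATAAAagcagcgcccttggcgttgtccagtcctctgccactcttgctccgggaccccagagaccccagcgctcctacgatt
Des: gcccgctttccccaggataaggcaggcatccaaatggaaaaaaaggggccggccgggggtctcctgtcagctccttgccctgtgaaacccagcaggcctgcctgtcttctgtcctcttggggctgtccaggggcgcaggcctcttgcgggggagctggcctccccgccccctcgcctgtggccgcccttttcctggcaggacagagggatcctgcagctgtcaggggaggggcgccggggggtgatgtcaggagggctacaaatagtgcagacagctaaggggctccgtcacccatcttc
None of the 5 windows held a strict CArG box, which 1.63% of 32851 mouse promoter windows of this length contain. Acta2 held 2 elements with 1 G or C in the otherwise A and T core, CCCTATATGG starting 84 bases and CCTTGTTTGG starting 34 bases before the start of transcription, and 12.2% of all windows hold such a relaxed match. Acta2 also held 1 GGAATG (14.7% of windows), and Vim held 1 TATAAA, 32 bases before its start (13.6% of windows). No match was found in Des, Pdgfra or Rgs5. These matches describe letters only.

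The intermediate filament genes gave both calls. Vim (vimentin, the filament of mesenchymal cells and leukocytes, chr2:13573927-13582826, plus strand) stood at 22.0, 17.5, 24.9, 21.7 and 18.5 CPM in DIO livers 1 to 5. In GB-IL livers 1 to 4 it stood at 68.7, 39.4, 89.8 and 36.0 CPM, so that 4 of 4 were above every DIO liver. Its log2 fold change was 1.48 ± 0.338 (edgeR adjusted p = 0.0336), or 2.80 times as a ratio of means and 2.49 times as a ratio of medians. The estimate stayed between 1.20 and 1.68 over 26 alternative fits, and the adjusted p was below 0.05 in 15 of them (range 0.00159 to 0.136). The call was lost without any 1 of the 5 DIO livers (adjusted p = 0.0709 to 0.0959), without GB-IL liver 1 (0.0941), 2 (0.0581) or 3 (0.0589), and when the 2 groups were fitted alone (0.0844). Of these fits, the one without GB-IL liver 3 called 540 genes higher (3.74%). The others called 0 of all genes, so there the loss was not particular to Vim.

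Macrophage markers were also high in some of the GB-IL livers, but their sum did not order the livers as Vim did. The summed level of 10 macrophage and Kupffer cell markers ran from 397 to 706 CPM of the total count in DIO, from 617 to 2211 in GB-IL and from 457 to 1087 in RYGB, and 4 of the 10 were called higher in GB-IL against DIO. GB-IL liver 3 was highest of all 14 livers both for Vim and for this sum. GB-IL liver 1, second highest for Vim, had a sum of 617, inside the DIO range, and RYGB liver 1 had a sum of 1087 with Vim inside its DIO range. Genes of the list went both ways in GB-IL liver 1. Clec4f, a Kupffer cell gene, was at 42.2 CPM there and at 129 to 202 in DIO. Cd68 was at 38.1 CPM there and at 10.7 to 19.3 in DIO (both genes were named after their values were seen). Lyz2 (lysozyme of macrophages and neutrophils, named after its values were seen) was at 48.6 to 102 CPM in DIO and at 121 to 531 CPM in GB-IL (244 in liver 1). Summed markers of neutrophils stood at 5.12 to 10.9 CPM of the total count in DIO. Of the 5 tested, 4 were called higher in GB-IL. Their sum was 108, 47.6, 254 and 6.54 in GB-IL livers 1 to 4. In RYGB it was 83.7 in liver 5 and 7.40 to 12.5 in livers 1 to 4. GB-IL liver 3, GB-IL liver 1, RYGB liver 5 and GB-IL liver 2 were highest, in this order, which was also their order for Vim. GB-IL liver 4 had a neutrophil sum inside the DIO range, with Vim above every DIO liver. The part of leukocytes in the level of Vim was not tested.

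Des (desmin, the filament of muscle and of rodent stellate cells, chr1:75360329-75368579, plus strand) had the largest fitted fold change of the 10 markers in GB-IL against DIO, and this rested on 1 liver. It was at 4.34, 3.35, 4.88, 5.26 and 4.13 CPM in DIO livers 1 to 5, at 243, 12.7, 5.89 and 4.43 CPM in GB-IL livers 1 to 4, and at 6.89, 4.83, 4.75, 5.25 and 4.43 CPM in RYGB livers 1 to 5. GB-IL liver 1 was far above all others, livers 2 and 3 were above every DIO liver by less, and liver 4 was within the DIO range. In GB-IL against DIO its log2 fold change was 3.92 ± 0.925 (edgeR adjusted p = 0.0363), or 15.1 times by means and 2.13 times by medians, where Ctgf (2.82), Vim (2.49) and Pdgfra (2.14 times) were higher. Without GB-IL liver 1 it was 0.79 (adjusted p = 0.234). Over 25 alternative fits with an adjusted p, that p ran from 0.000779 to 0.949 and was below 0.05 in 11.

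Skeletal muscle markers were present in the liver where Des was highest. The sum of 9 of them was 1597 CPM of the total count in GB-IL liver 1 and 0.736 to 3.40 in the other 13 livers. Ckm, the muscle creatine kinase, was at 102 CPM in GB-IL liver 1 and at 0 to 0.0961 CPM elsewhere, with no read in 9 of 13 livers, and Acta1, skeletal actin, was at 606 CPM against 0 to 1.01 (both genes were named after their values were seen). GB-IL liver 2, where Des was 12.7 CPM, had a muscle sum of 3.07 CPM of the total count, inside the DIO range of 0.872 to 3.40. The part of muscle RNA in the Des level of liver 1 was not tested beyond leaving that liver out. Within livers the ratio of Des to Vim was 0.192 to 0.243 in DIO, 0.0657 to 3.54 in GB-IL and 0.0789 to 0.298 in RYGB.

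**Figure D3:**
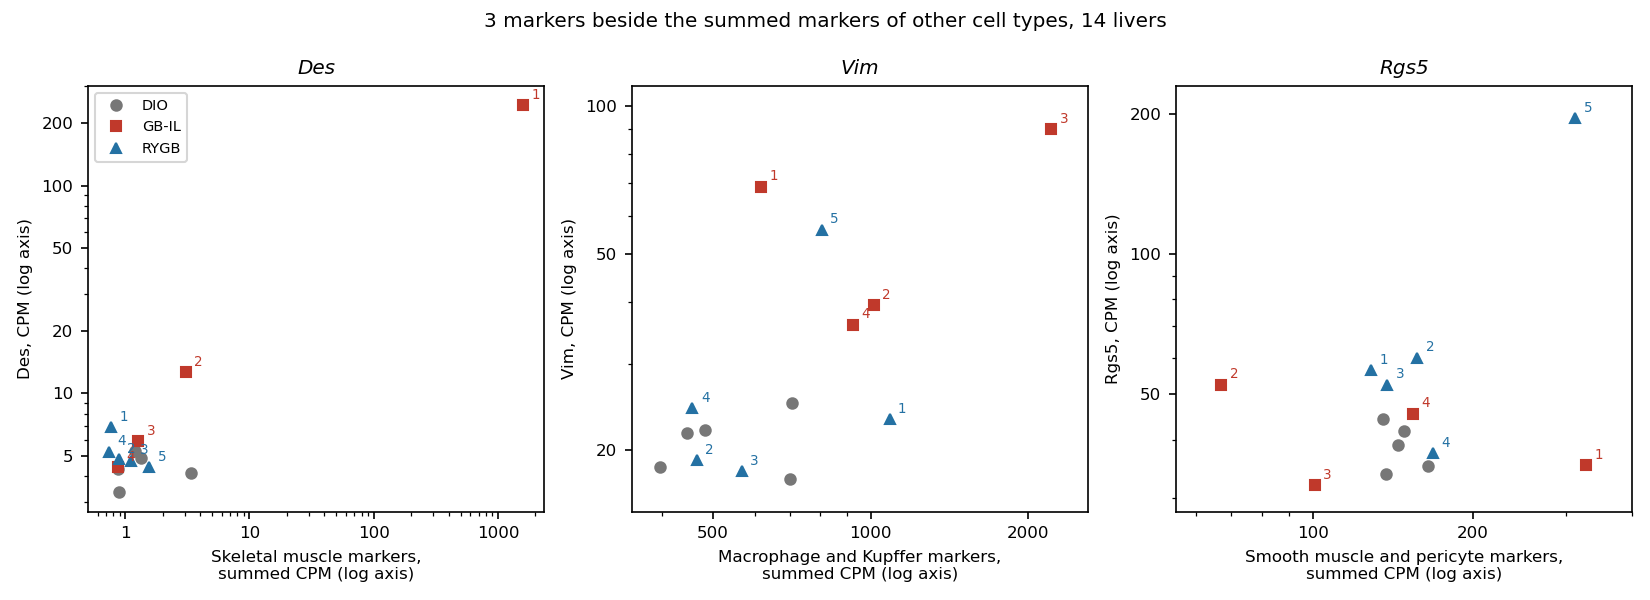
CPM of Des, Vim and Rgs5 (vertical, log axes) against the summed CPM of the total count of skeletal muscle, macrophage and Kupffer cell, and smooth muscle and pericyte markers (horizontal, log axes), with 1 point per liver and the numbers of GB-IL and RYGB livers. The liver with 243 CPM of Des has a muscle sum of 1597, and the liver with 89.8 CPM of Vim has a macrophage sum of 2211.

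The receptors for platelet-derived growth factor were highest in GB-IL livers 1 and 2. Pdgfra (receptor alpha, common to stellate cells and fibroblasts, chr5:75152292-75198215, plus strand) was at 5.18, 6.69, 3.36, 5.83 and 6.20 CPM in DIO and at 39.8, 18.9, 5.64 and 6.12 CPM in GB-IL. The first pair exceeded all DIO livers and the other pair was within the DIO range. Its log2 fold change of 1.69 ± 0.463 did not pass (edgeR adjusted p = 0.0593), and it was 0.90 without GB-IL liver 1 (adjusted p = 0.271). DESeq2 (adjusted p = 0.0108) and edgeR's exact test (0.00981) called it, in a range of 0.00651 to 0.991 over 26 alternative fits. Pdgfra was among the genes that the study displayed for these same livers, so its direction here is not independent evidence.

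Pdgfrb (receptor beta, carried by stellate cells and pericytes, chr18:61045150-61085061, plus strand) was at 9.73, 8.76, 7.84, 8.37 and 8.46 CPM in DIO and at 23.1, 16.6, 11.1 and 9.52 CPM in GB-IL. In GB-IL 3 of 4 livers were higher than all DIO livers, whose spread was the smallest of the 10 genes. The log2 fold change was 0.80 ± 0.242 (edgeR adjusted p = 0.0794), or 0.52 without GB-IL liver 1 (adjusted p = 0.283). DESeq2 (adjusted p = 0.0432), edgeR's exact test (0.0399) and the fit without GB-IL liver 4 (0.00999) called it, in a range of 0.00999 to 0.907 over 26 alternative fits. The ratio of Pdgfra to Pdgfrb within a liver was 0.429 to 0.764 in DIO, 0.508 to 1.72 in GB-IL and 0.596 to 1.25 in RYGB. Of the 4 ligand genes of the family, none was called in any comparison by edgeR. Pdgfc, the ligand with the smallest p in GB-IL against DIO, was at 4.85 ± 1.61 CPM in GB-IL and 3.22 ± 1.31 in DIO (log2 fold change 0.59, adjusted p = 0.299), and Pdgfd followed at 1.64 ± 0.793 against 1.23 ± 0.252 (0.42, adjusted p = 0.410).

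Dcn and Lum encode decorin and lumican, leucine-rich proteoglycans that bind collagen fibrils and lie close together on chromosome 10 (Dcn at chr10:97479609-97518143 and Lum at chr10:97565128-97572703, both on the plus strand). Lum was at 10.05, 5.86, 7.28, 7.07 and 5.29 CPM in DIO and at 23.2, 12.3, 12.3 and 10.5 CPM in GB-IL. Each of the 4 GB-IL livers was above every DIO liver, with liver 4 just past the highest DIO liver. The log2 fold change was 1.04 ± 0.277 and just missed the threshold (edgeR adjusted p = 0.0544), and it passed in 6 of 26 alternative fits, with estimates of 0.66 to 1.19 and adjusted p of 0.0121 to 0.495.

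Dcn, the more abundant of the pair, overlapped between the groups. It was at 198, 142, 118, 125 and 115 CPM in DIO and at 517, 219, 110 and 161 CPM in GB-IL, where liver 3 was below every DIO liver. Its log2 fold change was 0.85 ± 0.369 (edgeR adjusted p = 0.188), or 0.23 without GB-IL liver 1. Dcn over Lum within a liver ran from 16.2 to 24.2 in DIO, from 8.92 to 22.3 in GB-IL and only from 16.7 to 18.1 in RYGB. The 7 other tested genes of the same proteoglycan family gave no call in GB-IL against DIO and a median log2 fold change of -0.11. Among them Chad (chondroadherin) was at 0.472 ± 0.340 CPM in GB-IL against 1.68 ± 0.903 in DIO, below every DIO liver in 4 of 4 livers (log2 fold change -1.78, edgeR adjusted p = 0.0880). Bgn (biglycan) was at 138 ± 51.3 against 107 ± 14.4 CPM (log2 fold change 0.36, adjusted p = 0.311).

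Ctgf (connective tissue growth factor, a secreted matrix protein of the CCN family induced in activated stellate cells and in stressed hepatocytes, chr10:24595442-24598683, plus strand) varied within every group. In DIO it was at 6.59, 4.92, 3.92, 10.5 and 11.9 CPM, in GB-IL at 26.1, 44.2, 11.2 and 8.15 CPM and in RYGB at 3.17, 2.32, 4.30, 4.18 and 31.6 CPM. GB-IL livers 1 and 2 and RYGB liver 5 were above every DIO liver, RYGB livers 1 and 2 were below, and the rest overlapped. The log2 fold change in GB-IL against DIO was 1.56 ± 0.722 (edgeR adjusted p = 0.211), or 0.33 without GB-IL livers 1 and 2. Of 2 other tested genes of the family, Cyr61 was at 5.63 ± 2.65 CPM in GB-IL and 6.37 ± 1.37 in DIO (log2 fold change -0.18, adjusted p = 0.746) and Wisp1 at 0.566 ± 0.598 and 0.934 ± 0.549 CPM (-0.66, adjusted p = 0.507). Ctgf too was displayed by the study for these livers, so its direction is not independent evidence.

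Rgs5 (a regulator of G protein signalling and a marker of pericytes and stellate cells, chr1:169655501-169695813, plus strand) had the smallest estimate of the 10 markers in GB-IL. It stood at 44.4, 35.1, 41.7, 33.7 and 38.9 CPM in DIO and at 35.2, 52.5, 31.9 and 45.5 CPM in GB-IL, with overlap in both directions. The log2 fold change was 0.09 ± 0.382 (edgeR adjusted p = 0.900). In RYGB livers 1 to 5 it was at 56.4, 60.0, 52.5, 37.4 and 196 CPM, and 4 of the 5 livers were above every DIO liver.

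**Figure D4:**
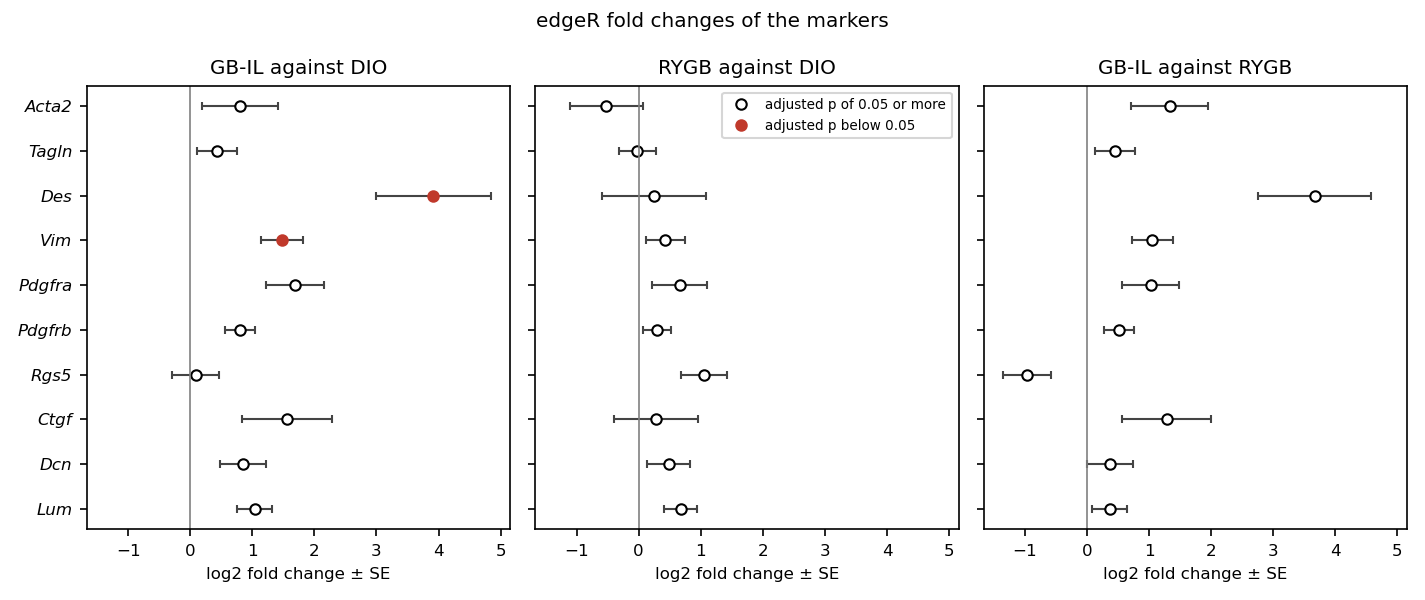
log2 fold change of each marker with its standard error (edgeR) in the 3 comparisons, where filled points have an adjusted p below 0.05. Des (3.92) and Vim (1.48) in GB-IL against DIO are the filled points.

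For RYGB against DIO, edgeR's quasi-likelihood test called none of the 10 markers and none of all genes (0% higher). At an unadjusted p below 0.05, 2 markers were higher, against 5.35% of all genes. DESeq2 and edgeR's exact test called 0 markers and limma's voom with sample weights called 1, Lum (adjusted p = 0.0213). Over all genes, the voom fit called 867 higher (6.08%), DESeq2 60 and the exact test 26. The median log2 fold change of the markers was 0.36, against 0.01 for all genes, with 8 of 10 estimates above 0. Without overlap 1 marker was higher (1.87% of all genes), and this was Pdgfra.

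Rgs5 had the largest estimate in RYGB against DIO, a log2 fold change of 1.05 ± 0.363 (edgeR unadjusted p = 0.0111, adjusted p = 0.468). Without RYGB liver 5 it was 0.42 (adjusted p = 0.939). The same liver held 123 CPM of Abcc9 and 30.2 CPM of Kcnj8, the channel subunits of pericytes, against at most 49.0 and 14.6 CPM elsewhere (both genes were named after their values were seen). They come from a list of smooth muscle and pericyte genes that had 6 of 12 estimates above 0 in RYGB against DIO, with a median log2 fold change of 0.01 and no call. In RYGB liver 5 the summed smooth muscle and pericyte markers were 313 CPM of the total count, against 129 to 168 in RYGB livers 1 to 4. Of this sum Abcc9 held 139 and Kcnj8 34.0, against 24.8 to 42.9 and 3.70 to 8.60 in RYGB livers 1 to 4. The sum therefore does not stand apart from these 2 genes. Sinusoidal endothelium markers in RYGB liver 5 summed to 718, against 256 to 407 in RYGB livers 1 to 4. The part of these cells in its Rgs5 level was not tested.

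Pdgfra was at 8.04, 7.94, 6.87, 8.07 and 12.2 CPM in RYGB, so that 5 of 5 livers were above every DIO liver, although liver 3 only just. Its log2 fold change of 0.66 ± 0.439 did not pass (edgeR adjusted p = 0.701, or 0.164 with the 2 groups fitted alone). Lum was at 8.91, 9.57, 9.93, 10.5 and 17.8 CPM, of which livers 4 and 5 were above every DIO liver (log2 fold change 0.67 ± 0.264, unadjusted p = 0.0219, adjusted p = 0.515 by edgeR, and 0.46 without liver 5). Pdgfrb, at 8.09, 12.5, 9.01, 13.5 and 9.76 CPM, and Dcn, at 152, 174, 175, 176 and 299.9 CPM, overlapped DIO (log2 fold changes 0.29 and 0.48, or 0.33 and 0.28 without liver 5). Vim was at 23.1, 19.1, 18.2, 24.4 and 56.2 CPM, and its log2 fold change of 0.43 was 0.03 without liver 5. Ctgf turned direction with that liver, from 0.28 to -1.10 without it, and neither value passed (adjusted p = 0.932 and 0.919).

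**Figure D5:**
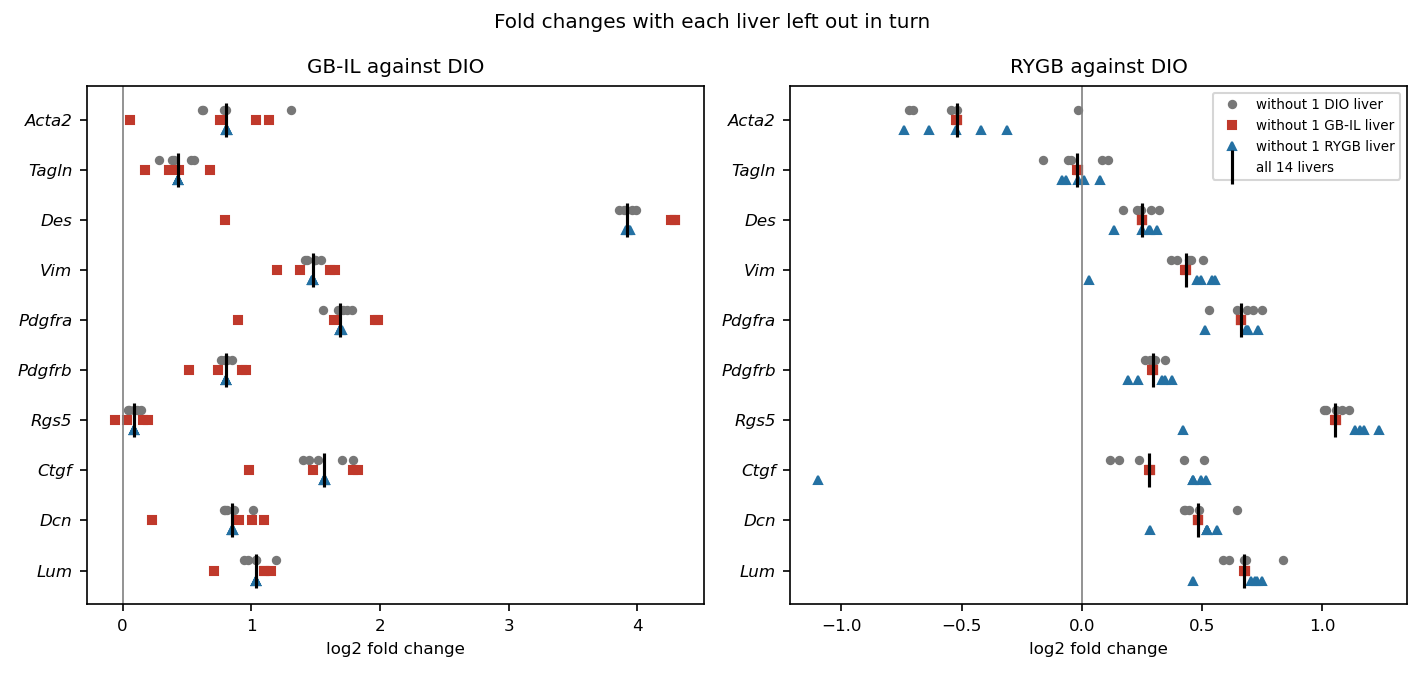
log2 fold changes of the markers in GB-IL against DIO and in RYGB against DIO (edgeR) with all 14 livers (vertical bars) and with each liver left out in turn (points, by the group of the liver left out). Des falls from 3.92 to 0.79 without GB-IL liver 1, and Ctgf in RYGB against DIO moves from 0.28 to -1.10 without RYGB liver 5.

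The operated groups were also set against each other. For GB-IL against RYGB, edgeR's quasi-likelihood test called no marker and no gene (0%). At an unadjusted p below 0.05, 4 markers were higher in GB-IL (Acta2, Des, Vim and Pdgfra), against 15.3% of all genes, and 1 was lower (Rgs5), against 6.77%. DESeq2 called 0 markers, edgeR's exact test called Des (adjusted p = 0.0042) and voom called Vim (adjusted p = 0.0478), where these tools called 693, 568 and 111 of all genes higher. No marker was without overlap, against 1.27% of all genes that were higher without overlap. Des had a log2 fold change of 3.67 ± 0.913 (edgeR adjusted p = 0.0839), which was 0.54 without GB-IL liver 1. Vim had 1.05 ± 0.336 (adjusted p = 0.119), and Rgs5 -0.96 ± 0.389 (adjusted p = 0.180), which was -0.33 without RYGB liver 5. Leaving out GB-IL liver 4 gave 3 called markers, Des, Vim and Pdgfra, in a fit that called 1948 genes higher (13.4%).

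Lists of related genes place the 10 markers among others of the same cells. Of 15 tested genes of quiescent stellate cells, 6 had estimates above 0 in GB-IL against DIO, with a median of -0.14. In this list 1 gene, not reported here, was called higher and none lower. Cygb (cytoglobin, a stellate cell globin) was at 21.6 ± 15.5 CPM in GB-IL and 8.91 ± 1.28 in DIO (edgeR adjusted p = 0.0681). It was at 42.3, 24.2, 11.7 and 8.01 CPM in GB-IL livers 1 to 4 and at 7.38 to 10.2 in DIO.

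Genes of the matrix and of activation gave 13 of 14 estimates above 0 in GB-IL against DIO, with a median log2 fold change of 1.31 and 3 calls (Mmp2, Lox and Thbs1). Mmp2 (a gelatinase that cuts collagen) was at 9.51 ± 7.82 CPM in GB-IL and 1.99 ± 0.408 in DIO, above every DIO liver in 4 of 4 (log2 fold change 2.25, edgeR adjusted p = 0.0278). Lox (lysyl oxidase, which crosslinks collagen) was at 0.395 to 5.25 CPM in GB-IL and 0 to 0.419 in DIO. In RYGB against DIO, 14 of these 14 estimates were above 0, with a median of 1.02 and no call, and 13 of 14 with a median of 0.64 without RYGB liver 5. Without GB-IL liver 1 the GB-IL median was 0.99, in a fit that called no gene of the list and none of all genes. The study displayed some of this list for the same livers, Mmp2 among them, so its direction is not independent evidence.

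Portal fibroblast markers, from the connective tissue around the bile ducts, gave 10 of 10 estimates above 0 in GB-IL against DIO, a median log2 fold change of 1.66 and 3 calls (Cd34, Pi16 and Igfbp6). Pi16 was at 2.73, 2.99, 2.84 and 0.996 CPM in GB-IL and at 0.288 to 0.967 CPM in DIO (log2 fold change 2.05, edgeR adjusted p = 0.0278). Liver 4 lay just past the highest DIO liver. Cd34, a sialomucin of fibroblasts and vessels, was at 15.4, 2.43, 5.47 and 3.58 CPM in GB-IL and at 1.15 to 1.26 CPM in DIO (log2 fold change 2.47, adjusted p = 0.0278). The summed list was 19.6 to 85.7 CPM of the total count in GB-IL and 11.1 to 21.9 in DIO. The upper value in GB-IL was 35.5 without liver 1, the liver with skeletal muscle transcripts. Without that liver the median log2 fold change was 0.85, with 10 of 10 estimates above 0 and no call. Mesothelium markers (5 tested) had a median of 2.01, with 4 higher at an unadjusted p below 0.05 and none called, and summed to 2.65 to 25.2 CPM of the total count in GB-IL, highest in liver 1, against 1.93 to 9.06 in DIO. In the same livers cholangiocyte markers summed to 72.0 to 313 against 47.5 to 76.1. In RYGB against DIO the portal fibroblast median was 0.19, with no call.

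Smooth muscle and pericyte genes gave no call in GB-IL against DIO (12 tested, median 0.64, or 0.02 without GB-IL liver 1, 3 higher and 1 lower at an unadjusted p below 0.05). Synpo2 (an actin-binding protein of muscle) was at 6.78 CPM in GB-IL liver 1 and at 0.382 to 0.812 in GB-IL livers 2 to 4 (adjusted p = 0.113). Notch3 (a receptor of mural cells) was at 1.10 ± 0.173 CPM in DIO, 1.70 ± 0.258 in GB-IL and 1.65 ± 0.269 in RYGB (edgeR adjusted p = 0.134 in GB-IL and 0.507 in RYGB, each against DIO). In RYGB 5 of 5 livers were above every DIO liver, but liver 2 only by scaling. It had 27 counts, as had DIO liver 2 (1.332 against 1.329 CPM). Among paralogues of Acta2 and Tagln, Tagln2 (transgelin 2, the form of leukocytes and epithelia) was the 1 call of 4. It was at 70.4 ± 42.1 CPM in GB-IL and 15.1 ± 2.55 in DIO (log2 fold change 2.22, edgeR adjusted p = 0.0278). Of the GB-IL livers 4 of 4 were above every DIO liver, liver 4 only just (19.7 against at most 18.8 CPM). Actb (beta actin) was at 539.9 ± 148 against 419 ± 78.1 CPM (edgeR adjusted p = 0.348). Among 6 tested filament genes beside Vim and Des the 1 call was Krt18, a keratin of hepatocytes and bile ducts (422 ± 309 against 126 ± 39.5 CPM, log2 fold change 1.75, adjusted p = 0.0406), and Lmna (lamin A) was at 59.5 ± 27.6 against 37.2 ± 6.52 CPM (adjusted p = 0.180).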

How the data were processed

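The deposited values are raw counts of reads per gene, which the authors made with TopHat 2 on mm10 and HTSeq. Tool versions: not given in the sources used here, nor is the strand setting. The labels name 2 library kits without saying which liver had which, so no batch term could be fitted. Nothing says more of replicates than 1 library per liver, numbered within a group. The 10 genes and all lists were chosen with earlier results of these data known. Besides the 10, the text names the 2 genes with the smallest p in GB-IL against DIO from each list of related genes, of which some are not reported here. Counts were tested with edgeR 4.0.16 (quasi-likelihood, TMM, filterByExpr, all 14 livers, 1 mean per group), with p-values adjusted by Benjamini-Hochberg at 0.05. DESeq2 1.42.0, limma 3.58.1 (voom), other scalings, filters and omissions were alternatives. Replicate numbers gave no sign of pairing livers, since of 13 pairs with 1 number 2 had a correlation over 0.1 (median -0.00723). The labels give no pairing, and this check could not exclude one. Simulated counts for GB-IL against DIO (14109 genes) returned 174 of 200 changed genes and 9 false calls. The raised genes had a median estimated log2 fold change of 2.00, and the counts had independent noise without outlying livers. They therefore check the code and do not give the power or error rate for smaller changes or for these livers. Gene positions are from GENCODE M21 (GRCm38).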

Additional observations from a re-analysis of the deposited data

Results flagged for a closer look

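In 8 of 30 sets of livers (10 markers in 3 groups), 1 liver lay farther from the others than Dixon's test at its 95% limit allows, where chance gives about 1 in 20. The sets share the same livers and are not independent, and all flags came from GB-IL liver 1 and RYGB liver 5. These livers had 36.1% and 27.3% of all tested genes above every DIO liver. Flags over all genes were not counted, so the count is not shown to be particular to these markers. In GB-IL, liver 1 was apart for Des (243 CPM, next liver 12.7) and for Lum (23.2 CPM, next 12.3). In RYGB, liver 5 was apart for Vim (56.2 CPM, next 24.4), Pdgfra (12.2, next 8.07), Rgs5 (196, next 60.0), Ctgf (31.6, next 4.30), Dcn (299.9, next 176) and Lum (17.8, next 10.5). No DIO liver was apart for any of the 10 markers, and no liver of any group for Acta2, Tagln or Pdgfrb.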

How the results depend on the processing

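For GB-IL against DIO, 2 markers were called with all livers, 4 by DESeq2 (which gave Des no adjusted p), 5 by edgeR's exact test, 0 with the 2 groups alone, 0 without GB-IL livers 1 and 2, 1 (Vim) without GB-IL liver 1 and RYGB liver 5 (an omission chosen after seeing the data), and 0 to 5 with 1 liver left out (0 without any DIO liver or GB-IL 1 or 2, 1 without RYGB 3 or 4, 5 without GB-IL 4). The fit with the replicate number as a block called 0 (Vim adjusted p = 0.0696, Des 0.221), while nothing shows that the numbers pair the livers. In RYGB against DIO the count was 0, with 1 by voom and 0 to 0 over omissions. In GB-IL against RYGB it was 0, with 1 by the exact test, 1 by voom and 0 to 3 over omissions. Calls over all genes moved too: in GB-IL against DIO from 465 to 1347 by DESeq2, 1129 by the exact test, 1 with the block and 0 to 3572 with 1 liver left out. They were 0 without any 1 DIO liver, without GB-IL 1 or 2, without both of these and with the 2 groups alone.

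Signs turned only in estimates (log2) that were not called. In GB-IL against DIO, Rgs5 was -0.0424 by voom, -0.0195 without GB-IL livers 1 and 2 and -0.0588 to 0.198 with 1 liver left out, and Dcn was -0.0583 without GB-IL livers 1 and 2. In RYGB against DIO, Tagln was 0.0202 with the replicate block, 0.004 with upper quartile scaling and -0.16 to 0.11 over omissions, above 0 without DIO 3, DIO 4, RYGB 2 or RYGB 5. Ctgf there was -0.37 with the replicate block, -1.05 by voom, -1.11 without GB-IL liver 1 and RYGB liver 5 and -1.10 (without RYGB 5) to 0.52 over omissions. In GB-IL against RYGB without GB-IL livers 1 and 2, Des was -0.0404, Pdgfra -0.57, Pdgfrb -0.0617, Dcn -0.54 and Lum -0.0145. Pdgfra was -0.0284 and Dcn -0.25 by voom, and Dcn was -0.0461 without GB-IL liver 1 and RYGB liver 5 and -0.26 (without GB-IL 1) to 0.61 over omissions. The causes were not tested. With 20 to 32 counts of Acta2 in its lowest livers, small differences in this gene are not detectable.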
